A study of Meloidogyne incognita with 75 samples.

Results

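The 150 steadiest transcripts of the root-knot nematode Meloidogyne incognita were followed through 8 developmental stages. They were taken from 45378 deposited transcripts, of which 43359 belong to genes with a single transcript identifier. Of these, 5153 had a count in all 75 libraries and 2355 also averaged at least 50 CPM (the count with the library total scaled to 1000000). The 150 with the lowest standard deviation (SD) of log2(CPM + 1) over the 75 libraries were kept, and the other 2205 of the 2355 are the transcripts they are set against. The levels that made this choice are described here without a test.

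Each library came from 1 animal, picked and staged by its shape under a microscope and lysed singly, and its messenger RNA was copied to cDNA by Smart-seq2, a method for very small inputs. The groups were pre_J2 (5 animals, hatched in vitro from eggs), par_J2 (12), J3 (14), J4 (8), J4_moulting (14), J4_female (8), male (7) and female (7). All animals were Meloidogyne incognita and no treatment is named in the labels. The libraries titled male carry the stage tag J4_male, those titled female the tag Adult female, and the titles are used here.

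Root-knot nematodes hatch as mobile juveniles that enter plant roots, settle, feed from giant cells that they induce and moult inside the root, and the adult females are swollen and lay eggs, while the adult males are worm-shaped and leave the root. Transcripts that hold an even level through such changes are commonly used as internal references, since a measured level is always relative to something. In sequencing the usual reference is the library total, which is fixed: when a few very abundant transcripts take a larger share of the counts, the share left for all others is smaller. Other scalings, such as the trimmed mean of M values (TMM) of edgeR or the size factors of DESeq2, take the reference from many transcripts. The size factors rest here on the 5445 transcripts with a count in all 75 libraries, the members among them. The deposited identifiers carry no gene names, so the members are named by identifier and no function is given.

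Library totals ranged from 3265447 to 40174566 counts with a median of 15503900. No member had fewer than 38 counts in any library, and the SD that counting error alone would give had a median of 0.047 on the log2 scale over the members. The 50 most abundant transcripts of a library held 47.4% ± 8.41 of its counts in female (SD, n = 7) and 38.9% ± 4.22 in pre_J2 (n = 5), against 15.2% ± 3.56 in par_J2 (n = 12). Only 4 of the 150 members were ever among the 50 most abundant of a library.

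The members were steady only in comparison. Their SD over the 75 libraries ran from 0.53 to 0.77 with a median of 0.72, against a median of 1.09 for the other 2205. The highest library of a member stood a median of 12.4 times above its lowest (5.75 to 37.3 over the members), against 52.4 times for the others. The limit of the list cut through a continuum. The last 3 inside were Mi_25236.1 at 0.76, Mi_14947.1 at 0.77 and Mi_24473.1 at 0.77, and the first 3 outside were Mi_25126.1, Mi_06502.1 and Mi_18179.1, all at 0.77. Among the transcripts within the count and level limits, which favour abundant ones, the members were not the most abundant. Their mean level had a median of 86.9 CPM, against 88.2 CPM for the others.

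Most of that spread lay between animals of the same stage. Stages accounted for a median of 32.8% of a member's variance (6.13% to 57.3%), against 43.0% for the other transcripts. Within stages the SD had a median of 0.61 for the members and 0.84 for the others, both far above counting error. The stage means of a member spanned a median of 1.35 log2 units, against 2.50 for the others, and 27 members kept all 8 stage means within 1 unit.

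**Figure D1:**
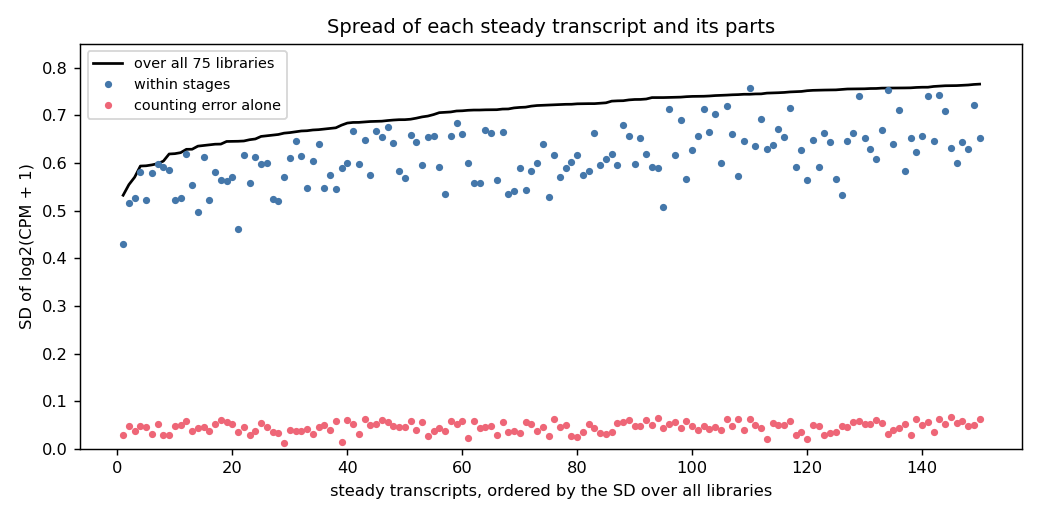
The 150 steady transcripts are ordered along the x axis by their SD over all 75 libraries, and the y axis gives SDs of log2(CPM + 1): the line is the SD over all libraries, the upper points the SD within stages and the lower points the SD from counting error alone. The line runs from 0.53 to 0.77, the points within stages lie mostly under it with a median of 0.61, and the counting error lies near the bottom with a median of 0.047.

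The steadiest of all, Mi_35949.1 (SD 0.53), still had a low stage. Its 5 pre_J2 animals had 120.0, 136, 77.2, 67.1 and 109.5 CPM. The median was 238 CPM in par_J2 (177 to 328), 190.1 in J3 (99.9 to 273), 216 in J4 (136 to 253), 213 in J4_moulting (140.1 to 328), 238 in J4_female (155 to 346), 172 in male (35.7 to 253) and 165 in female (122 to 214). The pre_J2 range overlapped that of every other stage except par_J2, J4_moulting and J4_female, and its lowest value of all came from a male.

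A stage's shift is defined here as its mean of log2(CPM + 1) minus the mean of the other 7 stage means. For Mi_35949.1 it was -0.94 in pre_J2 and 0.46 in par_J2. Mi_20982.1, next in the order (SD 0.55), went the other way, with 155, 223, 84.7, 121 and 109.9 CPM in the pre_J2 animals and a shift of 0.91, while the medians of the other 7 stages lay between 56.9 CPM in female and 91.6 CPM in J4_moulting. Mi_08413.1 (SD 0.57) had its highest level in par_J2, with a median of 213 CPM (113 to 316) and a shift of 0.65. Pre_J2 had the widest shift in the first 2 of the list, in opposite directions, and par_J2 in the third.

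Mi_22910.1 and Mi_18305.1, both with an SD of 0.59, complete the first 5. Mi_22910.1 is 1 of 5 members whose shift stayed under 0.5 in all 8 stages, its widest being 0.44 in pre_J2. The other 4, chosen after their values were seen, are Mi_41659.1, Mi_33093.1, Mi_31857.1 and Mi_17222.1. Among the other 2205 transcripts 5 met the same limit. Mi_18305.1 was lower in female, with a shift of -0.84 and a median of 53.6 CPM (24.7 to 72.6), against stage medians of 56.6 to 114 CPM elsewhere. Under a limit of 1 log2 unit, 85 members kept all 8 stages inside, against 167 of the other 2205.

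A common direction remained in the list as a whole. By total counts the members' median shift was -0.41 in pre_J2, 0.38 in par_J2, 0.20 in J3, 0.17 in J4, 0.16 in J4_moulting, 0.18 in J4_female, -0.11 in male and -0.59 in female. In pre_J2 104 of the 150 were below the other stages and in female 133, whereas 135 were above them in par_J2. The other 2205 transcripts had medians of the same sign in each stage: -0.92 in pre_J2, 0.73 in par_J2, 0.48 in J3, 0.35 in J4, 0.17 in J4_moulting, 0.29 in J4_female, -0.34 in male and -0.85 in female. Both sets had their low medians in pre_J2, male and female and the highest in par_J2.

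Counted by member, the lowest stage was female for 65 (43.3%) and pre_J2 for 59 (39.3%), against 33.2% and 42.9% of the other transcripts. It was male for 17, and each of the remaining 5 stages for 1 to 3 members. The highest stage was par_J2 for 48 members (32.0%), against 42.2% of the other transcripts. Shifts of 1 log2 unit or more were seen in 29 members in pre_J2 (3 up, 26 down), 2 in par_J2, 3 in male and 35 in female (1 up, 34 down), and in 0 in J3, J4, J4_moulting and J4_female. Of the other transcripts 58.1% reached that size in pre_J2 and 48.1% in female.

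The animals of a stage did not all share its shift. Taking for each library the median deviation of the 150 members from their own means over all 75 libraries, the 5 pre_J2 animals lay at -0.47, -0.31, -0.23, -0.40 and -0.45. The 12 par_J2 animals lay between 0.14 and 0.47, with a median of 0.30. These groups did not overlap, and each lay wholly on its own side of 0.

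The 7 females lay at -0.92, -0.22, -0.49, -0.28, -0.36, -0.49 and -1.43, all below 0. The medians of the other 2205 transcripts were likewise below 0 in all 7, between -1.60 and -0.55. By the members, the 7 males lay on either side of 0: males 2 and 3 lay at -0.67 and -0.63, and males 5 and 7 at 0.27 and 0.24. J4 lay between -0.74 and 0.37 and J4_moulting between -0.71 and 0.51, each with most animals above 0. J3 lay between -0.34 and 0.46, with 10 of 14 animals above 0, and J4_female between -0.08 and 0.47, with 4 of 8. The stage values of these 5 stages thus joined animals on both sides of 0. The median shift of the members in male was -0.0047 without male 2, -0.013 without male 3, -0.22 without male 5 and -0.17 without male 6, against -0.11 with all 7 males. Without J4_6 that in J4 was 0.30, against 0.17 with all 8 animals, and without J4_female_2 that in J4_female was 0.12, against 0.18.

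In the libraries with the lowest members the 50 most abundant transcripts held a large share of the counts, though libraries of like share could differ. In female 7 the top 50 held 62.8% of the counts and the members' deviation was -1.43. In female 1 the share was 53.8% and the deviation -0.92. In J4_moulting 9, 7 and 6 the shares were 52.8%, 47.9% and 44.6% and the deviations -0.71, -0.53 and -0.38, and in J4_6 the share was 46.1% and the deviation -0.74. Males 2 and 3 were as low, at -0.67 and -0.63, with shares of 40.6% and 33.6%. J3_2, with a share of 34.0%, lay at 0.0061, and J4_2, with 33.1%, at 0.073. J4_moulting 11 had a share of 10.6% and a deviation of 0.51, whereas J4_5, with 11.2%, lay at 0.0069. The part of this share in the members' shifts was not tested.

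**Figure D2:**
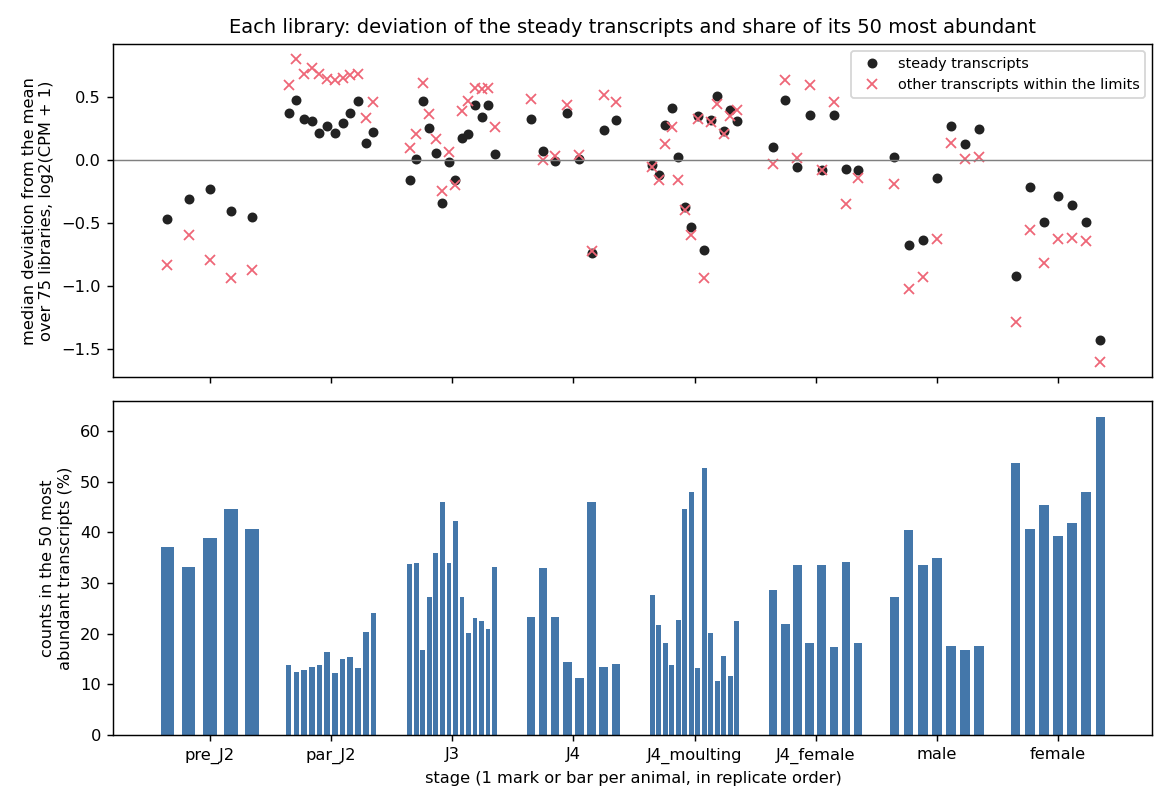
Each mark in the upper panel is 1 animal, grouped by stage along the x axis, with the median deviation of the steady transcripts (dots) and of the 2205 others (crosses) in log2(CPM + 1) on the y axis. The bars in the lower panel give the percent of that animal's counts in its 50 most abundant transcripts. Female 7, with the tallest bar at 62.8%, has the lowest dot at -1.43, and the dots of all 5 pre_J2 and all 7 female animals lie below 0.

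Together the 150 members held 1.58% ± 0.19 of the counts in pre_J2 (SD, n = 5), 2.33% ± 0.19 in par_J2 (n = 12), 2.07% ± 0.35 in J3 (n = 14) and 2.08% ± 0.27 in J4 (n = 8). They held 1.89% ± 0.43 in J4_moulting (n = 14), 2.06% ± 0.31 in J4_female (n = 8), 1.68% ± 0.35 in male (n = 7) and 1.32% ± 0.26 in female (n = 7). The share was lowest in female 7, at 0.956%, and highest in a J3 animal, at 2.76%. Fewer cells that express these transcripts, less of their RNA per cell and a larger share taken by other transcripts cannot be told apart in whole animals.

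These shifts depended on the scaling. With TMM the members' median shift was -0.27 in pre_J2, 0.18 in par_J2, 0.07 in J3, -0.27 in J4, -0.08 in J4_moulting, -0.02 in J4_female, -0.02 in male and 0.40 in female. In female the direction turned: 116 members were above the other stages and 34 below, against 17 above and 133 below by total counts. With TMM 17 members were up by 1 unit or more in female and 0 down, against 1 up and 34 down by total counts. A change of scaling moves all transcripts of a library by nearly the same log2 amount. The median of the other 2205 thus turned in female too, from -0.85 to 0.13, and the turn was not particular to the members. Of the other 2205, 1256 were above and 949 below with TMM, against 408 above and 1797 below by total counts. Among them 400 were up by 1 unit or more with TMM and 142 down, against 133 up and 928 down by total counts.

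With DESeq2 size factors the direction turned in 7 of the 8 stages, J4_moulting and J4_female included, and only male kept its sign. The medians were 0.23 in pre_J2, -0.23 in par_J2, -0.09 in J3, -0.11 in J4, -0.05 in J4_moulting, -0.07 in J4_female, -0.04 in male and 0.33 in female. Those of the other 2205 transcripts turned only in J4_moulting, to -0.04, and in female, to 0.07. For the members, upper-quartile factors gave 0.04 in pre_J2, 0.20 in par_J2 and 0.32 in female. With the totals of the deposited filtered table (22287 transcripts, all members among them) as the reference, female stayed low at -0.30 and pre_J2 turned to 0.24. When the members' own median was the reference, the stage medians lay between -0.04 in pre_J2 and 0.045 in female, as this choice forces.

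**Figure D3:**
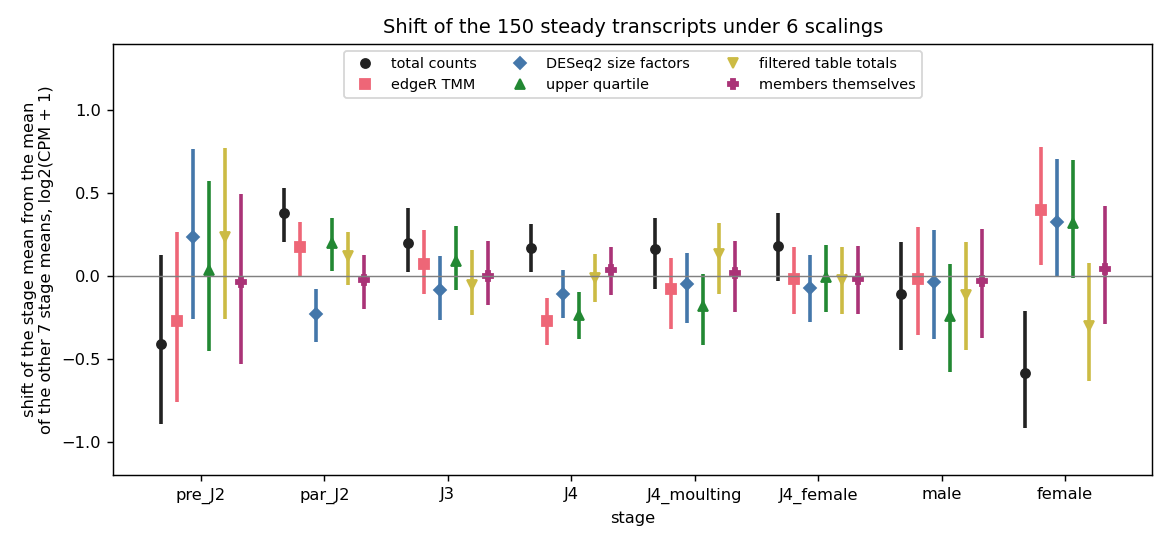
For each stage along the x axis, 6 symbols give the median shift of the 150 steady transcripts from the other stages under 6 scalings, on a y axis of log2(CPM + 1), and the bars run over the middle of the members from the lower to the upper quartile. In female the symbol lies at -0.59 by total counts and at 0.40 with TMM, and in pre_J2 it lies at -0.41 by total counts and at 0.23 with DESeq2 size factors.

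The TMM factors differed between stages also with the members left out, though the library totals still held their counts. The stage means of the factor spanned 1.27 log2 units, and as much with the members included. The members are 150 of 39835 transcripts and hold at most 2.76% of a library's counts, so leaving them out could hardly change the factors. TMM factors computed without the 150 averaged -0.93 ± 0.47 on the log2 scale in female (SD, n = 7), the lowest stage, and 0.34 ± 0.61 in J4 (n = 8), the highest. In a permutation test over the 8 stages (F statistic, 100000 resamples) p was 1e-05, the smallest these resamples can give. It concerns the factors only and not the shifts of the members. Between J4 animals the factor ran from -0.87 in J4_6 to 1.04, so that stage means of this factor rest on widely spread animals.

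Under the other scalings the members varied less than under the one that chose them. Their median SD was 0.66 with TMM, 0.62 with DESeq2 size factors, 0.67 with upper-quartile factors and 0.67 with the filtered totals, against 0.72 by total counts. It was 0.60 with their own median as the reference. The other 2205 varied less as well, with a median SD of 1.02 with TMM and 0.95 with DESeq2 size factors, against 1.09 by total counts. The members with all stage means within 1 unit numbered 48 with TMM and 56 with DESeq2 size factors, against 27 by total counts. Members below the other stages in both pre_J2 and female numbered 13 with TMM and 4 with DESeq2 size factors, against 88 by total counts.

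The spread between animals of a stage also depended on the scaling. In female the median within-stage SD of the members was 0.31 with TMM and 0.50 by total counts, and in male it was 0.53 and 0.71. In J4_female it was larger with TMM, at 0.71 against 0.64 by total counts. Of the 11175 pairs of members 89.5% were positively correlated over the 75 libraries by total counts, with a median r of 0.27. The median r was 0.16 with TMM, 0.067 with DESeq2 size factors and -0.0058 with the members' own median. All pairs share the libraries and their totals, so these values are a description.

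Which transcripts count as steady changed with the reference. Choosing 150 by the same rule under another scaling returned 81 members with TMM (54.0%), 69 with DESeq2 size factors (46.0%), 78 with upper-quartile factors (52.0%) and 106 with the filtered totals (70.7%). The 6 lists together held 294 transcripts, and 46 were in all of them. Of these 46, 28 were also in each of the 8 lists that total counts gave when a stage was left out. The 46 had a median stage range of 1.41 by total counts, 0.93 with TMM and 0.80 with DESeq2 size factors. Mi_35949.1 and Mi_18305.1 of the first 5 are among the 28, and Mi_20982.1, Mi_08413.1 and Mi_22910.1 are not among the 46.

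Mi_18305.1 shows how far a reference can flatten a member. Its stage means spanned 1.14 log2 units by total counts, 0.44 with TMM and 0.52 with DESeq2 size factors. Its female shift of -0.84 by total counts was 0.15 with TMM. For Mi_35949.1 the span was 1.23 by total counts and 1.47 with TMM, since its female shift of -0.12 by total counts became 0.88 with TMM. The same change of reference thus made 1 of the first 5 flatter and another less flat.

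In pre_J2 the largest shifts went both ways, most of them with the common direction. Mi_07081.1 had the highest shift there, with 152, 150.02, 183, 139.7 and 154 CPM in the 5 animals. Its stage medians elsewhere lay between 46.4 CPM in female and 101 CPM in J4_moulting, and only J4_moulting, which reached 166 CPM, overlapped the pre_J2 range. The shift was 1.39 by total counts and 1.53 with TMM. In all, 14 members were higher in pre_J2 by 0.5 or more.

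Mi_12925.1 had the lowest shift in pre_J2, with 31.6, 32.9, 28.1, 6.75 and 26.8 CPM. Its other stage medians lay between 48.7 CPM in male and 89.4 CPM in J4_female, and male, with a lowest value of 27.0 CPM, and J4_moulting, with 32.3 CPM, overlapped the pre_J2 range. The shift was -1.65 by total counts and -1.52 with TMM. Mi_43818.1, which had the highest shift in J4_female (0.94; median 90.5 CPM, 62.8 to 172), was nearly as low in pre_J2, with 22.9, 13.965, 23.4, 22.2 and 20.4 CPM, all below the lowest animal of every other stage. These low values kept their sign under TMM, at -1.40 for Mi_43818.1.

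Mi_14336.1 had the largest part of its variance between stages, 57.3%. Its pre_J2 animals had 41.7, 31.3, 43.1, 25.2 and 31.8 CPM, against a median of 131 CPM in par_J2 (57.6 to 233) and 147 CPM in J4 (61.2 to 174). Female and male lay between, with medians of 58.7 and 78.9 CPM. Mi_17222.1 had the smallest part, 6.13%. Its stage medians lay between 34.8 CPM in female and 50.4 CPM in male, where the 7 animals ran from 9.87 to 152 CPM.

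In par_J2 Mi_20723.1 had the highest shift, with a median of 472 CPM (256 to 910.2). Its pre_J2 animals had 112, 111, 109.9, 168 and 136 CPM, and the medians of the later stages lay between 174 CPM in female and 282 CPM in J4_female. The par_J2 shift was 1.17 by total counts and 0.97 with TMM. Mi_22774.1 had the lowest shift in par_J2, with a median of 39.1 CPM (15.0 to 74.9) and a shift of -0.70, against 78.8 CPM in pre_J2 (76.7 to 111). Its par_J2 and pre_J2 animals did not overlap.

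In J3 the extremes of the shift were Mi_18411.1, with a median of 322 CPM (214 to 527) and a shift of 0.91, and Mi_07581.1, with 31.2 CPM (18.0 to 60.3) and -0.56. Both overlapped other stages, Mi_18411.1 for example par_J2 at 279 CPM (157 to 482). In J4 the highest shift was that of Mi_22757.1, with a median of 312 CPM (185 to 595) and a shift of 0.86, and the lowest that of Mi_39334.1, with 82.5 CPM (35.5 to 120.4) and -0.53. Mi_39334.1 also had the highest shift in male, with a median of 168 CPM (121 to 327) and a shift of 0.96, and its male and J4 animals did not overlap. With TMM its shifts were 1.05 in male and -0.97 in J4.

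In J4_moulting Mi_33415.1 had the highest shift, with a median of 133 CPM (85.6 to 314) and a shift of 0.96, and in female it was low, with a median of 36.4 CPM (26.0 to 66.8). Its J4_moulting and female animals did not overlap. Mi_08792.1 had the lowest shift in J4_moulting, with a median of 182 CPM (110 to 301) and a shift of -0.56, while its females had a median of 396 CPM (342 to 846). In J4_female the lowest shift was that of Mi_06639.1, with a median of 32.2 CPM (12.2 to 74.1) and a shift of -0.76.

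In male Mi_02567.1 had the lowest shift, with a median of 56.0 CPM (17.5 to 147) and a shift of -1.30, against 148 CPM in female (72.3 to 260.3). The male animals overlapped those of every other stage. In female 3 members went against the common direction and were higher by 0.5 or more, Mi_10836.1, Mi_08792.1 and Mi_33821.1, the last of them chosen after its values were seen. All 3 were lower in pre_J2 by 0.5 or more.

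Mi_10836.1 had the highest shift in female, 1.11 by total counts and 2.11 with TMM, with a female median of 163 CPM (95.2 to 210.4). Its pre_J2 animals had 37.0, 19.8, 61.5, 39.1 and 60.3 CPM, and the medians of the stages between lay from 69.0 CPM in J4 to 103 CPM in J4_moulting. Mi_18359.1 had the lowest shift in female, -1.68 by total counts and -0.72 with TMM, with a female median of 19.3 CPM (8.74 to 56.5), against medians of 55.9 to 83.4 CPM elsewhere. For these extremes the direction in female was the same by total counts and with TMM, unlike that of the list as a whole. The common upward move with TMM carried Mi_10836.1 further up and was too small to turn Mi_18359.1.

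**Figure D4:**
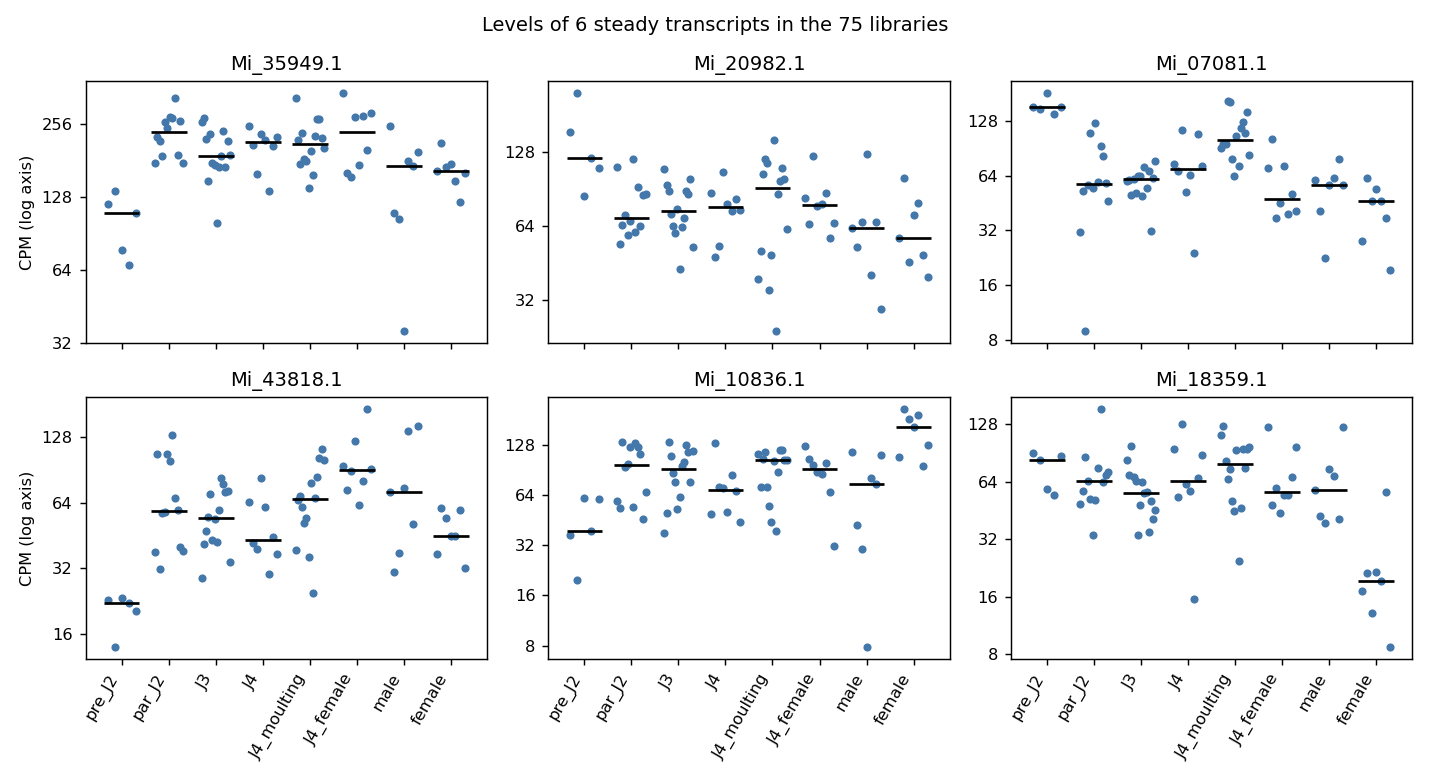
Levels of 6 steady transcripts in every library, in CPM on a log axis, by stage along the x axis, with 1 dot per animal and a line at the stage median. Mi_35949.1 and Mi_20982.1 are the first of the list, Mi_07081.1 is high in pre_J2, Mi_43818.1 is low in pre_J2 with all 5 dots under every other stage, and in female Mi_10836.1 has its highest stage median, at 163 CPM, and Mi_18359.1 its lowest, at 19.3 CPM.

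The 3 members with the largest mean share of counts fell short of an even level too. Mi_33290.1, at a mean of 1240.1 CPM over all libraries, had stage medians from 901 CPM in female (499.9 to 1003.7) to 1635 CPM in J4 (1038.0 to 2202). Mi_01584.1, at 959 CPM, ran from 622 CPM in female (402 to 741) to 1186 CPM in J4 (877 to 1457). The third, Mi_41787.1, at 510.2 CPM, ran from 325 CPM in J4_moulting (198 to 550.3) to 679.7 CPM in J4 (304 to 1148). In all 3 the J4 median was the highest of the 8, though every stage overlapped others.

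The tests across all transcripts (edgeR quasi-likelihood, TMM, all 39835 transcripts that passed the filter on low counts, 75 libraries in 1 fit) used the counts that chose the members, so their calls among the members are given as counts only. A transcript was called when p after Benjamini-Hochberg adjustment was under 0.05 and the fold change reached 1 log2 unit in either direction. In pre_J2 25 members were called, 6 higher and 19 lower, against 31.6% of all transcripts tested (13% higher, 18.6% lower). Among the 2355 transcripts within the members' own count and level limits, members included, it was 48.2% (10.3% higher, 37.9% lower). In female 15 were called, all higher, against 12.7% of all tested (9.99% higher) and 20.8% of the 2355 (13.7% higher). With total counts as the only scaling, 36 members were called in female, 1 higher and 35 lower, against 19.4% of all tested (4.80% higher, 14.6% lower). Of these 36 and the 15 called with TMM, 1 was called under both scalings. All of the 15 were higher and only 1 of the 36 was, so no more could be shared with the same sign.

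In the remaining stages few members were called. In par_J2 it was Mi_20723.1 alone, which was higher, against 20.3% of all tested (11% higher) and 24.4% of the 2355 (22.2% higher). In J4 it was Mi_39334.1 alone, which was lower, against 14.5% of all tested (0.432% lower) and 4.71% of the 2355 (1.78% lower). Without J4_7 and J4_8 it was 6.33% of all tested, again with 1 member called. In male it was Mi_05024.1, which was higher, and Mi_02567.1, which was lower, against 31.2% of all tested (16.6% higher, 14.6% lower) and 27.4% of the 2355 (9.51% higher, 17.9% lower). Leaving out the library with the lowest total count, J4_5, left 0 calls in both par_J2 and J4. Leaving out J4_7 and J4_8 left 0 in par_J2, and leaving out pre_J2_4 or pre_J2_5 left 0 in J4. With TMM edgeR called no member in J3 (10.2% of all tested, 6.45% of the 2355), J4_moulting (15.7%, 12.6%) or J4_female (10.3%, 7.52%). With total counts only it called 1 in J4_female, where 14 alternative fits called 1.03% to 14.1% of all tested. The members with an unadjusted p under 0.05 numbered 25 in J3, 38 in J4_moulting and 24 in J4_female. No share over all tested was taken at that limit, so whether these counts are many or few cannot be told. DESeq2 called 0 in each of these 3 stages, against 8.41%, 13.5% and 6.84% of all tested in J3, J4_moulting and J4_female. Limma-voom called 0 in J3, 0 in J4_moulting and 1 in J4_female, against 11.7%, 16.4% and 1.03%.

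With the adjusted p alone and no fold limit, 47 members (31.3%) were called in pre_J2, against 32.1% of all tested and 53.1% of the 2355. In female it was 42 (28.0%), against 13.2% of all tested and 27.0% of the 2355. In par_J2 it was 25 (16.7%), against 23.5% and 46.5%, and in male 25 (16.7%), against 32.7% and 38.7%. In J3 it was 5 (3.33%), against 11.7% and 21.1%, and in J4 6 (4.00%), against 14.7% and 8.03%. In J4_moulting it was 17 (11.3%), against 17.1% and 25.2%, and in J4_female 6 (4.00%), against 10.7% and 11.3%.

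In the direct comparison of the libraries titled male with those titled female, 24 members were called, all lower in male, against 29.8% of all tested (17.9% lower) and 35.4% of the 2355 (22.8% lower). With total counts only, 41 were called, 37 higher in male and 4 lower, against 32.0% of all tested (20.3% higher, 11.7% lower). Of these 41 and the 24 called with TMM, 4 were called under both scalings. All of the 24 were lower in male and only 4 of the 41 were, so no more could be shared with the same sign. Over the 8 stages 110 members were called in none, 37 in 1, 2 in 2 and 1 in 3, against 500 of the other 2205 called in none.

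Stages that took no part in the choice gave a view of steadiness that the choice itself could not fix. The rule was applied to the libraries of 7 stages, and the new 150 were then read in the stage left out. By total counts the median shift of the chosen was -1.10 in pre_J2, 0.41 in par_J2, 0.23 in J3, 0.18 in J4, 0.14 in J4_moulting, 0.16 in J4_female, -0.36 in male and -1.001 in female. In pre_J2 82 of the 150 (54.7%) were off by 1 unit or more, against 59.6% of the other transcripts, and in female 78 (52.0%), against 47.0%. In pre_J2 and female the chosen were thus off about as often as the other transcripts.

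The other stages behaved otherwise. In male 20 of the chosen (13.3%) were off by 1 unit or more, against 33.8% of the other transcripts, and in par_J2 11 (7.33%), against 35.6%. In J3 it was 1 (0.667%), against 12.6%, and in J4, J4_moulting and J4_female 0, against 5.81%, 10.3% and 7.17%. Leaving out pre_J2 changed the list most, with 93 members kept, and leaving out J4 least, with 132.

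Pre_J2 and female then differed in what the scaling did. With TMM, for the choice and the reading, the chosen shifted by a median of -0.18 in female and 6 of 150 (4.00%) were off by 1 unit or more, against 24.8% of the other transcripts. With DESeq2 size factors it was -0.11 and 8 (5.33%), against 24.5%. In pre_J2 54 (36.0%) were still off with TMM, against 59.2%, and 44 (29.3%) with DESeq2 size factors, against 52.6%. Of the 150 transcripts that total counts chose without pre_J2, 6 had no count in at least 1 pre_J2 animal, against 256 of the other 2489.

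**Figure D5:**
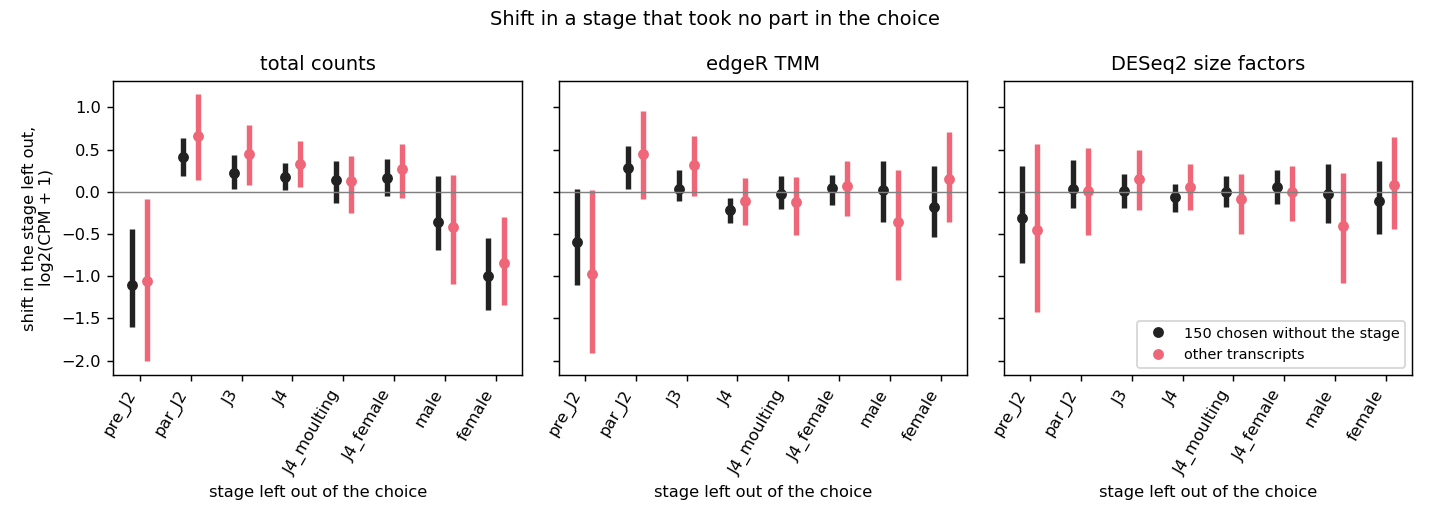
Each panel uses 1 scaling and gives, for each stage left out along the x axis, the median shift in that stage of the 150 transcripts chosen in the other stages (left dot) and of the other transcripts (right dot), with bars between the lower and upper quartiles, in log2(CPM + 1) on the y axis. By total counts the chosen lie at -1.10 in pre_J2 and -1.001 in female. With TMM they lie at -0.60 and -0.18.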

How the data were processed

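The authors deposited 2 tables of counts per transcript for 75 single-animal Smart-seq2 libraries, whole numbers that are not normalized, a full table and a filtered one with the same values. The tools named in the submitters' processing notes are HISAT2 2.2.1 and StringTie 2.2.1. The sources used here give no genome build, annotation, strand setting or treatment of near-identical copies. Such copies are frequent in this polyploid genome, so the counts of transcripts that have them are uncertain. Libraries, each labelled as a single nematode, were grouped by their titles, and every column name equals a title. The columns J4_7 and J4_8 stand among the J3 columns and were kept as J4. There are no molecular identifiers, so the counting SD covers counting error only, and the labels give no batch: a stage and any batch it was handled in cannot be told apart.

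CPM was taken over the library total and log2 values with a pseudocount of 1. The members and the lists were chosen with earlier results of these data known. Named are the 5 members with the lowest SD, the 3 on each side of the limit, the 3 with the highest mean CPM, those with the highest and the lowest shift of each stage, and those with the largest and the smallest share of variance between stages. Counts were tested in edgeR 4.0.16 (R 4.3.3) with filterByExpr, TMM, robust quasi-likelihood fits over all 75 libraries and Benjamini-Hochberg adjustment, and the fit was tested on simulated data. Alternatives were other scalings (TMM, upper quartile, DESeq2 1.42.0 size factors, the filtered totals, the members), other limits for the choice, no filter on low counts, DESeq2 and limma-voom (limma 3.58.1) as tests, the replicate number as a block, no fold threshold, and leaving out libraries. Choosing the list without a stage under TMM and DESeq2 size factors, and leaving out each library of every stage but pre_J2, were added after the data had been seen. Python 3.11.15 (pandas 2.3.3, numpy 2.4.6, matplotlib 3.10.9) served for the descriptions, the permutation test and the figures. All libraries of a stage differed by more than sampling noise, so none was counted as a duplicate: chi-square per degree of freedom was 45.9 or more in each of 356 pairs.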

Additional observations from a re-analysis of the deposited data

Results flagged for a closer look

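The members' median deviation in J4_6 was -0.74, far from the other 7 J4 animals, which lay between -0.0088 and 0.37. Mi_18305.1 (36.7 CPM, against 71.2 to 123 in the others) and Mi_18359.1 (15.5 CPM, against 53.2 to 128) were low in the same library. The 50 most abundant transcripts held 46.1% of its counts, and their part in these values was not tested.

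In J4_female, animal 4 stood far below the others for the 2 members with the highest mean CPM, with 377 CPM for Mi_33290.1 (others 1071 to 1868) and 263 CPM for Mi_01584.1 (others 694 to 1496). Animal 8 stood apart for 4 members in both directions. It was high for Mi_07581.1 with 185 CPM (others 29.8 to 60.1) and for Mi_08792.1 with 1220.5 CPM (others 164 to 384), and low for Mi_24473.1 with 17.7 CPM (others 43.8 to 90.5) and for Mi_10836.1 with 31.8 CPM (others 66.8 to 126). Animal 7 was low for Mi_02567.1 with 28.6 CPM (others 87.7 to 231).

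In pre_J2, animal 4 was low for Mi_12925.1 with 6.75 CPM (others 26.8 to 32.9) and for Mi_17222.1 with 13.3 CPM (others 35.1 to 47.2), and animal 2 for Mi_43818.1 with 13.965 CPM (others 20.4 to 23.4). Male 4 was high for Mi_22910.1 with 214 CPM (others 50.8 to 72.9). Female 7 was low for Mi_25236.1 with 16.2 CPM (others 27.1 to 38.5) and, just outside the list, for Mi_25126.1 with 10.4 CPM (others 28.6 to 53.5). J4_8 was low for Mi_06502.1, also just outside the list, with 14.1 CPM (others 43.5 to 112).

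All 17 were picked out by the gap to the nearest animal of the same stage, as a share of the stage's range. Of 170 groups of 4 to 10 animals looked at, 10.0% stood out in this way, where chance gives about 1 in 20 for independent normal values. The groups share animals, and many transcripts were named for an extreme stage shift, so these rates cannot be set against each other.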

How the results depend on the processing

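Under the alternatives 71 values moved and 345 did not. A move was a shift by more than the SD between animals of the stage. For a median SD it was a change by more than its SD over members, and for a count one by more than 1.5 times. Many of the 345 left out a single library, which can hardly move its stage by that SD. Leaving out a library of another stage cannot change a stage's share of counts at all. The 345 are therefore no measure of stability. Against the reported median shifts, pre_J2 moved to -0.27 with TMM, 0.23 with DESeq2 size factors, 0.038 with upper-quartile factors, 0.24 with the filtered totals and -0.038 with the members as reference, and par_J2 to 0.18, -0.23, 0.20, 0.12 and -0.024 in the same order. J3 moved to -0.087 with DESeq2 size factors and -0.056 with the filtered totals, J4 to -0.27 with TMM and -0.24 with upper-quartile factors, and J4_female to -0.070 with DESeq2 size factors. Female moved to 0.40 with TMM, 0.33 with DESeq2 size factors, 0.32 with upper-quartile factors and 0.045 with the members as reference. Differences within that SD still turned the sign or changed the size of some medians: J4_moulting lay at -0.18 with upper-quartile factors, -0.08 with TMM and -0.05 with DESeq2 size factors, J4 at -0.11 with DESeq2 size factors, male at -0.24 with upper-quartile factors and female at -0.30 with the filtered totals. Choosing and reading without the stage gave -0.60 (TMM) and -0.31 (DESeq2 size factors) in pre_J2, 0.28 and 0.027 in par_J2, -0.18 and -0.11 in female, and -0.21 with TMM in J4. The median SD, 0.72 by total counts, was 0.66 (TMM), 0.62 (DESeq2 size factors), 0.67 (upper quartile), 0.67 (filtered totals) and 0.60 (members). Lists shared 81, 69, 78 and 91 members with TMM, DESeq2 size factors, upper-quartile factors and the members as reference. They shared 94 by coefficient of variation, 65 by the SD over 8 stage means and 93 without pre_J2. With a limit of 100 CPM 60 were shared, but most members, with a median mean level of 86.9 CPM, could not pass it. Other causes were not tested. With no fold threshold the called members numbered 47 in pre_J2, 25 in par_J2, 5 in J3, 6 in J4, 17 in J4_moulting, 6 in J4_female, 25 in male and 42 in female. Total counts only gave 3 in par_J2, 0 in J4, 1 in J4_female, 36 in female and 41 in male against female. The members as size factor gave 16 in pre_J2, 0 in J4 and 5 in female. DESeq2 size factors in edgeR, and DESeq2 itself, gave 2 in par_J2 and 0 in J4, and limma-voom 0 in J4 and 1 in J4_female. No filter on low counts gave 0 in par_J2 and J4, as did leaving out the library with the lowest total count, and leaving out J4_7 and J4_8 gave 0 in par_J2. Over 14 alternative fits the share of all tested transcripts called ran from 24.2% to 33.6% in pre_J2, 17.9% to 42.6% in par_J2, 6.33% to 28.6% in J4 and 11.5% to 19.4% in female. It ran from 1.03% to 14.1% in J4_female, 27.6% to 46.2% in male and 25.8% to 32.7% in male against female.

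The labels do not say that a replicate number pairs animals, and deviations of same-numbered libraries had a median correlation of -0.020 (206 pairs, -0.42 to 0.44), against -0.0031 for different numbers. With the replicate number as a block, 1 of the 14 alternative fits, 0 members were called in par_J2, 0 in J4 and 5 in male. The other counts moved by at most 1.5 times. Leaving out single libraries gave median shifts of -0.46 to -0.37 in pre_J2, 0.34 to 0.40 in par_J2, 0.17 to 0.23 in J3, 0.13 to 0.30 in J4, 0.11 to 0.21 in J4_moulting, 0.12 to 0.19 in J4_female, -0.22 to -0.0047 in male and -0.64 to -0.47 in female. Leaving out each pre_J2 animal gave 21 to 27 called in pre_J2, 14 to 16 in female and 0 to 1 in J4, with 0 without pre_J2_4 or pre_J2_5. The members' median deviation had an SD between animals of 0.43 in female, 0.39 in male, 0.38 in J4_moulting and 0.36 in J4. This spread holds amplification noise as well as differences between animals, which cannot be told apart here.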
